A study of Oryza sativa with 6 samples.

Results

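Signals of 5 genes of diterpenoid phytoalexin synthesis were followed in rice roots given a yeast. The genes were OsCPS2 (LOC9266189), OsKSL4 (LOC4335094), OsKSL7 (LOC4329724), OsKO4 (LOC4341343) and CYP76M5 (LOC4329721). They were chosen by name: a probe set was taken where the platform annotation gave it exactly 1 gene and the gene's symbol or RefSeq synonym was one of these names. All 5 names were found, each with 1 probe set, among 14662 genes and 41770 probe sets on the array. Oryza sativa of the cultivar Swarna MTU7029 was used at an age of 3 weeks. Its untreated roots of 0 h served as the control, and roots were sampled again 6 h and 24 h after cells of Rhodotorula mucilaginosa JGTA-S1, a red basidiomycete yeast, had been supplied. There were 2 Affymetrix arrays at each of the 3 times, 6 in all. No untreated roots of 6 h or 24 h were among them, so yeast and elapsed time cannot be told apart, and nothing in the labels ties the 2 arrays of a time to different plants. P-values therefore rest on the spread between such arrays, possibly technical. That spread was uneven: over all probe sets the Pearson coefficient was 0.868 between the controls, 0.936 between the 6 h arrays and 0.976 between the 24 h arrays. The first control had 0.871 to 0.888 with the treated arrays, above its 0.868 with the second control. Each contrast with 0 h rests on these 2 controls.

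Rice makes its diterpenoid phytoalexins, the momilactones, phytocassanes and oryzalexins, from geranylgeranyl diphosphate in plastids. A class II cyclase folds this precursor into a copalyl diphosphate of the ent or the syn form, a kaurene synthase-like enzyme turns that into a tricyclic olefin, and cytochrome P450s and dehydrogenases oxidise the olefin. The ent form is also the precursor of gibberellins, which have their own cyclase and synthase. The pathway is known for its induction by fungal elicitors, jasmonate and ultraviolet light, and momilactones are also released from rice roots. Several of its genes lie in clusters on chromosomes 2 and 4.

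Values are the deposited log2 signals. Array medians lay between 2.79 and 2.93, but lower quartiles were 2.25 and 2.27 at 0 h, 1.91 and 2.13 at 6 h, and 1.93 and 1.98 at 24 h, so dim signals as a whole read lower on treated arrays. Signals of root and green shoot genes are given beside the root label as a description, since levels of different probes cannot be set against each other and do not verify a tissue. Of 20 root genes listed 13 had a probe set, with signals that ran from 2.07 to 3.28 for PT6, named for a phosphate transporter, up to 10.63 to 10.89 for NAS1, named for a nicotianamine synthase. Of 21 green shoot genes listed 6 had one, from 1.76 to 2.83 for GLK1 up to 4.59 to 5.93 for CAB1R, named for a chlorophyll-binding protein. Neither list held a gene that passed in any comparison. Of all probe sets 1.53% passed at 6 h, 2.21% at 24 h, 0% from 6 h to 24 h and 5.5% with treated arrays pooled. At 6 h 3 of the 6 green shoot genes read higher and 3 lower. CAB1R differed by -1.06 at 6 h (limma unadjusted p = 0.0101, adjusted p = 0.131). CAB1R differed by 0.99 from 6 h to 24 h (limma unadjusted p = 0.0142). A limma unadjusted p under 0.05 was held by 19.2% and 2.63% of all probe sets in these comparisons. Of the 13 root genes 2 met that limit at 6 h and 1 at 24 h, all higher, and 2 from 6 h to 24 h, both lower. The log2 values of the 6 green shoot genes added up to 18.77 and 21.08 on the 6 h arrays, 20.20 and 22.08 on the 24 h arrays, and 20.36 and 21.31 on the control arrays. A sum of log2 values does not measure an amount of green shoot RNA. The part of such RNA in the results was not tested.

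None of the 5 genes passed limma's test, which required a p-value under 0.05 after Benjamini-Hochberg adjustment over all 41770 probe sets, at either time. At 6 h 0 of 5 passed, against 1.53% of all probe sets, and at 24 h 0 of 5, against 2.21%. At an unadjusted p under 0.05, 1 of 5 met the limit at 6 h (CYP76M5, higher) and 1 of 5 at 24 h (OsKO4, lower), against 19.2% and 21.5% of all probe sets. The values showed no general rise: 3 of 5 read lower than the control at 6 h and 4 of 5 at 24 h, where 54% and 52.4% of all probe sets read lower. CYP76M5 was the exception at 24 h. Because both comparisons use the same 2 control arrays, their likeness carries no weight of its own. In whole roots, fewer cells expressing a gene and less RNA per cell cannot be told apart.

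**Figure D1:**
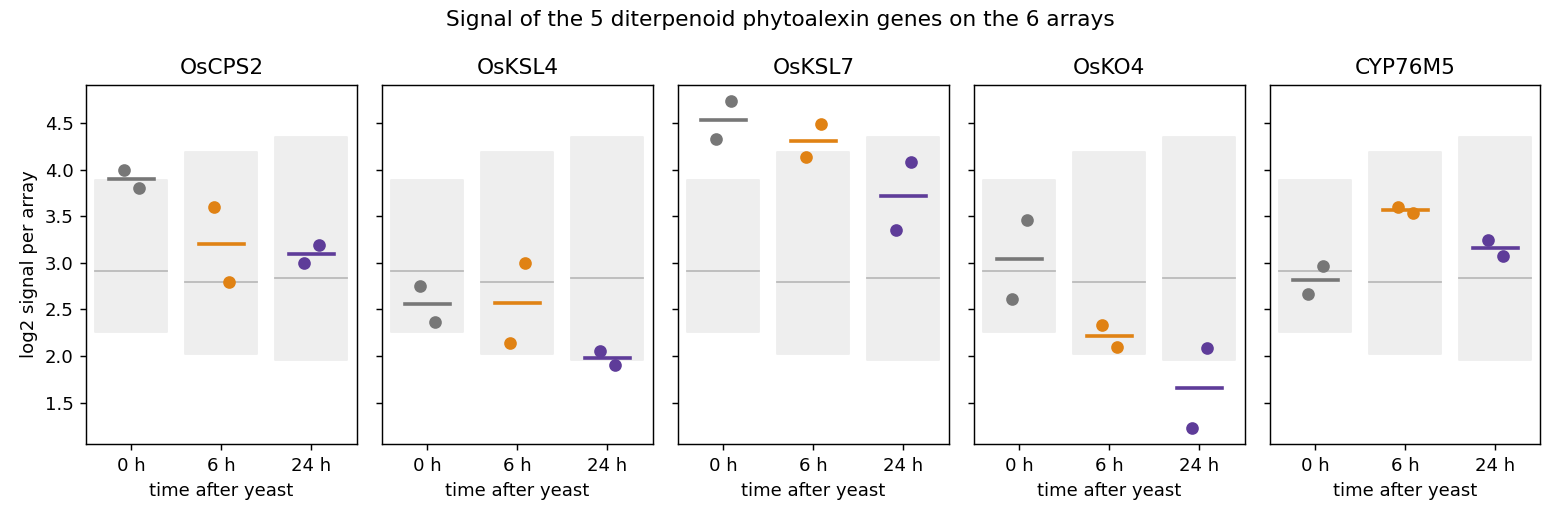
Log2 signal of the 5 genes (vertical axis) on each array at 0 h, 6 h and 24 h after the yeast (horizontal axis); points are arrays, coloured bars are means of 2 arrays, and the grey box and line are the quartiles and median of all probe sets, averaged over the 2 arrays. At 24 h both arrays lie below both control arrays for OsCPS2, OsKSL4, OsKSL7 and OsKO4, and above them for CYP76M5.

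OsCPS2 is the cyclase that makes ent-copalyl diphosphate for phytocassanes and oryzalexins. It read 3.99 and 3.80 on the 0 h arrays, 3.61 and 2.79 on the 6 h arrays, and 3.00 and 3.19 on the 24 h arrays. Every treated array lay below both controls, with the first 6 h array close to them. The time means were 3.90 ± 0.14 at 0 h, 3.20 ± 0.58 at 6 h and 3.09 ± 0.13 at 24 h (SD, n = 2), and the 6 h and 24 h means did not differ beyond their spread. The difference from the control was -0.70 ± 0.35 at 6 h (SE, limma adjusted p = 0.321) and -0.80 ± 0.35 at 24 h (adjusted p = 0.236), a signal 1.75-fold lower at 24 h. The 95% interval at 24 h ran from -1.62 to 0.01. OsCPS2 was thus not shown to change, and a fall as deep as the lower bound is within its interval. Leaving out 1 array moved the 6 h difference to between -1.11, without the first 6 h array, and -0.29, without the second.

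The kaurene synthase-like enzymes that act next were represented by OsKSL4 and OsKSL7. OsKSL4 makes syn-pimaradiene, the olefin of the momilactones. It read 2.75 and 2.36 on the 0 h arrays, 2.14 and 3.00 on the 6 h arrays, and 2.05 and 1.91 on the 24 h arrays. The 6 h arrays fell on either side of both controls, whereas both 24 h arrays were lower. Means were 2.56 ± 0.28 at 0 h, 2.57 ± 0.61 at 6 h and 1.98 ± 0.10 at 24 h (SD, n = 2), so the 0 h and 6 h levels did not differ beyond their spread. The difference was 0.01 ± 0.37 at 6 h (SE, limma adjusted p = 0.991) and -0.58 ± 0.37 at 24 h (adjusted p = 0.391), with a 95% interval of -1.43 to 0.27 at 24 h. Without the first control array the 24 h difference was -0.38. The 24 h signals lay near the lower quartiles of those arrays, 1.93 and 1.98, and how far they stand above background is unknown.

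OsKSL7 makes ent-cassadiene, the olefin of the phytocassanes. Its signals were 4.33 and 4.74 at 0 h, 4.13 and 4.50 at 6 h, and 3.36 and 4.09 at 24 h. The 6 h arrays overlapped the controls, and both 24 h arrays were below them and apart from each other. Means of 4.53 ± 0.29 at 0 h and 4.31 ± 0.26 at 6 h did not differ beyond their spread, and the 24 h mean was 3.72 ± 0.52 (SD, n = 2). OsKSL7 differed from the control by -0.22 ± 0.36 at 6 h (SE, limma adjusted p = 0.774) and by -0.81 ± 0.36 at 24 h (adjusted p = 0.242). The 24 h interval, -1.64 to 0.02, was like that of OsCPS2, and the signal was 1.75-fold lower. With 1 array left out the 24 h difference ran from -1.18, without the second 24 h array, to -0.44, without the first, and the 6 h difference from -0.42, without the first control, to -0.02, without the second.

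Oxidation of the olefins was represented by 2 cytochrome P450 genes. OsKO4, also called CYP701A8, is a relative of the gibberellin kaurene oxidase that hydroxylates ent-cassadiene and ent-sandaracopimaradiene. It read 2.61 and 3.46 on the 0 h arrays, 2.33 and 2.097 on the 6 h arrays, and 1.23 and 2.08 on the 24 h arrays. All 4 treated arrays lay below both controls, and the first 24 h array, at percentile 2.43 of its probe sets, lay far under that array's lower quartile. Means were 3.04 ± 0.60 at 0 h, 2.21 ± 0.16 at 6 h and 1.65 ± 0.60 at 24 h (SD, n = 2), and the 6 h and 24 h means did not differ beyond their spread. OsKO4 differed by -1.38 ± 0.41 at 24 h (SE, limma adjusted p = 0.117, unadjusted p = 0.0102), with a 95% interval of -2.34 to -0.43, and how far its 24 h signals stand above background is unknown. Without the second control or without the first 24 h array the difference was -0.96 in each case (unadjusted p = 0.0583 and 0.102). At 6 h the difference was -0.82 ± 0.41 (adjusted p = 0.320), and it ran from -1.25, without the first control, to -0.40, without the second.

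CYP76M5 belongs to a group of neighbouring P450s that hydroxylate diterpene olefins. It read 2.67 and 2.97 on the 0 h arrays, 3.60 and 3.53 on the 6 h arrays, and 3.25 and 3.08 on the 24 h arrays. All treated arrays were above both controls, those of 6 h by the wider margin. Means were 2.82 ± 0.21 at 0 h, 3.57 ± 0.05 at 6 h and 3.16 ± 0.12 at 24 h (SD, n = 2). The 6 h difference of 0.75 ± 0.29 did not pass (SE, limma adjusted p = 0.220, unadjusted p = 0.0338), with an interval of 0.07 to 1.43, and at 24 h the difference was 0.34 ± 0.29 (adjusted p = 0.525). The unadjusted p at 6 h exceeded 0.05 without any 1 array other than the second control (0.0645 to 0.104), with array weights (0.0666), with only the 0 h and 6 h arrays (0.0757) and with an intensity trend (0.0546). Without the first control the 24 h difference was 0.19. CYP76M6, CYP76M7 and CYP76M8 are close relatives of CYP76M5, and OsKO5 of OsKO4, so a share of signal from them cannot be told apart with the values used here.

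**Figure D2:**
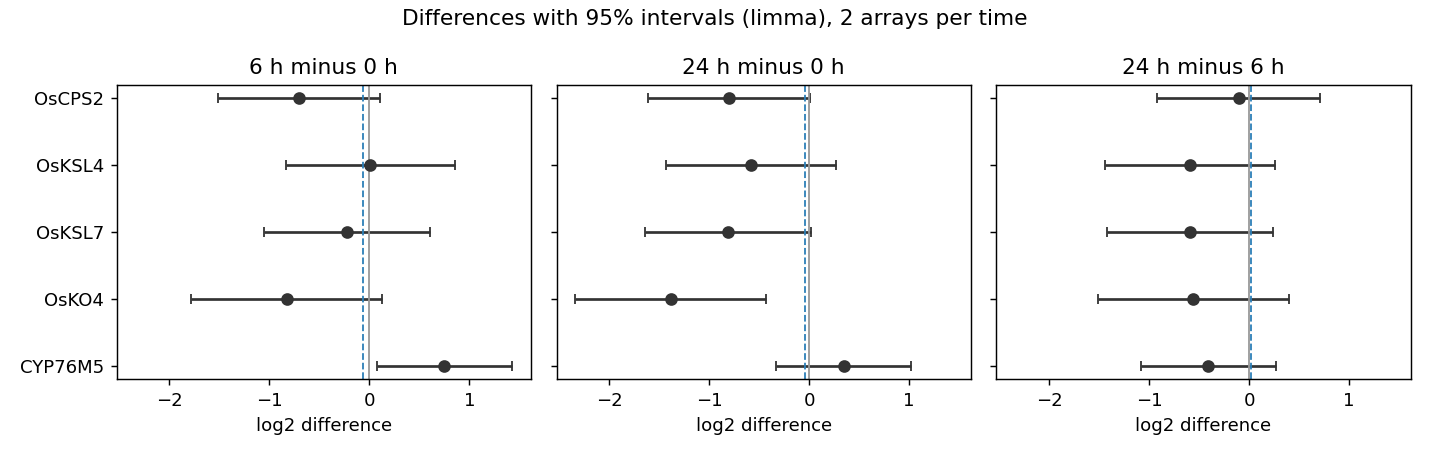
Log2 differences (horizontal axes) of the 5 genes (vertical axis) in 3 panels, the 2 treated times against the control and the later treated time against the earlier; points are limma estimates from 2 arrays per time, bars are 95% intervals and the dashed line is the median over all probe sets. Only the intervals of CYP76M5 at 6 h (0.07 to 1.43) and OsKO4 at 24 h (-2.34 to -0.43) leave out 0 in the fit to all arrays, and neither gene passed after adjustment.

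The count of genes whose arrays did not overlap with the controls has to be read against the same count over the array. At 24 h both arrays lay below both controls for 4 of the 5 genes, against 28% of all probe sets, and above them for 1, against 28.4%. At 6 h they lay below for 2 genes (OsCPS2 and OsKO4), against 23.3%, and above for CYP76M5, against 22.4%. The median difference of the 5 genes was -0.22 at 6 h, against -0.06 over all probe sets, and -0.80 at 24 h, against -0.04. Over the 14662 genes the medians were 0.20 and 0.26. The members were chosen with results of these arrays known, and these shares are a description.

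With all 4 treated arrays set against the 2 controls, again 0 of 5 genes passed, against 5.5% of all probe sets. The differences were -1.10 ± 0.36 for OsKO4 (SE, limma adjusted p = 0.111) and -0.75 ± 0.31 for OsCPS2 (adjusted p = 0.178), both with an unadjusted p under 0.05, as for 24.6% of all probe sets. CYP76M5 differed by 0.55 ± 0.25 (adjusted p = 0.230), OsKSL7 by -0.51 ± 0.31 (0.343) and OsKSL4 by -0.28 ± 0.32 (0.618). The order of the genes depended on the arrays and their scaling: OsKO4, OsCPS2 and OsKSL7 differed by -1.02, -1.03 and -0.98 after quantile normalization and by -0.84, -0.94 and -1.03 after cyclic loess. Without the second control OsKO4 differed by -0.68 (unadjusted p = 0.123) and OsCPS2 by -0.85. The smallest fold that passed anywhere on the array was 2.79 at 6 h, 2.64 at 24 h and 2.08 in this pooled comparison.

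From 6 h to 24 h all 5 genes read lower, against 48% of all probe sets, and none passed in limma, against 0% of all probe sets. At an unadjusted p under 0.05 there were also 0 of 5, against 2.63%. Both 24 h arrays lay below both 6 h arrays for OsKSL4, OsKSL7, OsKO4 and CYP76M5, 4 of 5 genes against 14.5% of all probe sets. The differences were -0.59 ± 0.37 for OsKSL4, -0.59 ± 0.36 for OsKSL7, -0.56 ± 0.41 for OsKO4, -0.41 ± 0.29 for CYP76M5 and -0.10 ± 0.35 for OsCPS2 (SE, limma adjusted p = 1.00 for each). Every interval held 0, and the widest bounds were -1.51 and 0.71.

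Scaling of the arrays altered how far apart the genes lay but made no call. After quantile normalization the 24 h difference was -1.32 for OsKSL7, -1.25 for OsKO4 and -1.09 for OsCPS2, and after cyclic loess it was -1.40, -1.10 and -1.07 for the same genes. OsKSL7 was the gene that scaling moved most, and at 6 h its difference became -0.64 and -0.65 under these methods, with both 6 h arrays below both controls. The 6 h arrays of OsKO4 overlapped the controls after cyclic loess. OsKSL4 moved the other way, to -0.32 at 24 h under both, and its 24 h arrays then overlapped the controls after quantile normalization. CYP76M5 kept a positive difference, although after cyclic loess it was 0.19 at 24 h and its arrays overlapped the controls. The 2 scalings left both 24 h arrays below both controls for 22.8% and 22.9% of all probe sets.

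**Figure D3:**
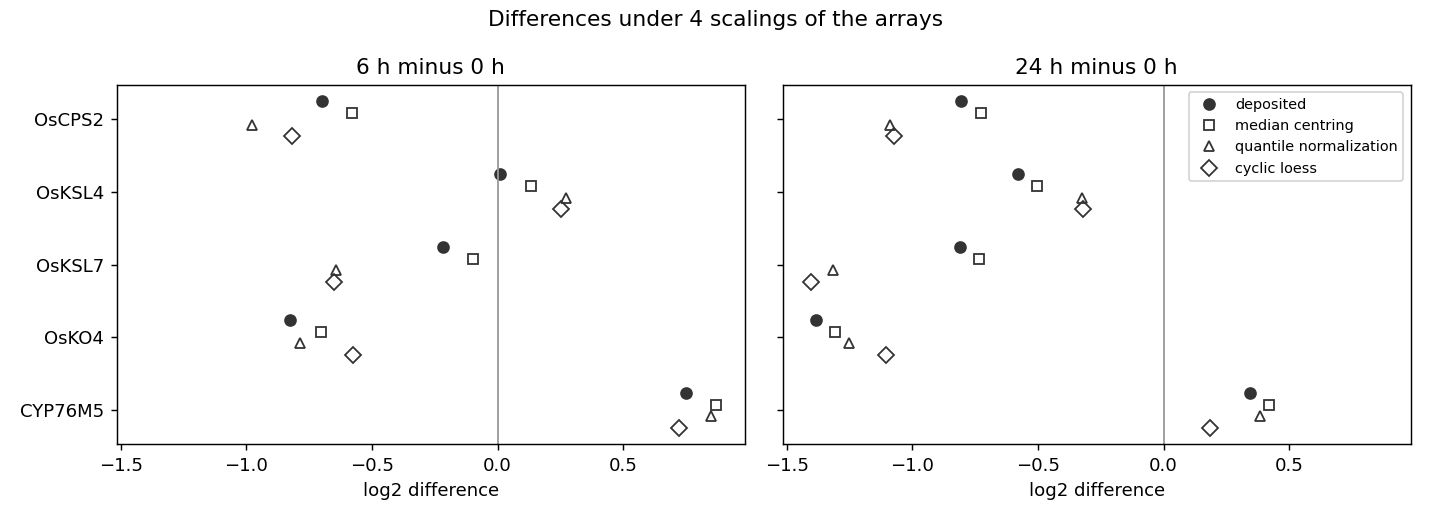
Log2 difference (horizontal axes) of the 5 genes (vertical axis) at 6 h and 24 h from 0 h as deposited, after median centring, after quantile normalization and after cyclic loess; each symbol is a difference of means of 2 arrays. OsKSL7 lies between -0.73 and -1.40 at 24 h, and no gene changes sign between scalings.

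The patterns of the 5 genes over the 6 arrays were only partly alike, as Pearson coefficients describe. OsKSL7 and OsKO4 had the highest coefficient, 0.88, followed by OsCPS2 and OsKO4 at 0.72. OsCPS2 and OsKSL7, which lie in 1 cluster and act one after the other on the phytocassane route, had 0.41. CYP76M5, of the same cluster, had -0.62 with OsCPS2 and -0.18 with OsKSL7. The points share array and scaling, and with 6 arrays in 3 groups they carry no test.

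Among 825 genes with a symbol or synonym and an SD of at least 0.5 over the arrays, the pattern most like OsCPS2 was that of OsMAN4, named for a mannanase (Pearson coefficient 0.94), and then OsNIP1;1, named for an aquaporin (0.94). For OsKSL4 they were osysl4, named for a metal-nicotianamine transporter (0.96), and VLN4, named for a villin (0.91). OsKSL7 was most like OsKO4 (0.88) and IAA9, an Aux/IAA repressor (0.86). OsKO4 was most like OsRPA32-3, named for a subunit of replication protein A (0.91), and LTD, named for a plastid import protein (0.90). CYP76M5 was most like AtNLP3, named for a NIN-like protein (0.98), and OsADF6, named for an actin depolymerising factor (0.97), and 26 genes reached 0.9 with it. For OsKSL7 0 genes did.

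On chromosome 2 of the RefSeq assembly ASM3414082v1, of the Japonica Group, 2 protein-coding genes lie between CYP76M5 and OsKSL7, 1 lies between OsKSL7 and CYP71Z7, and CYP71Z7 and OsCPS2 are next to each other. CYP71Z7, a P450 that hydroxylates ent-cassadiene, read 2.76 and 1.82 on the 0 h arrays, 2.73 and 3.01 on the 6 h arrays, and 2.32 and 2.41 on the 24 h arrays. Its controls spanned the treated arrays of 24 h, and the difference was 0.58 ± 0.37 at 6 h (SE, limma adjusted p = 0.432) and 0.07 ± 0.37 at 24 h (adjusted p = 0.927). LOC4329723, an unnamed gene of the same stretch, differed by 0.19 and 0.07. At 24 h the 5 measured genes between CYP76M5 and OsCPS2, these ends included, thus ran from -0.81 for OsKSL7 to 0.34 for CYP76M5. Of these 0 were past the threshold, against 2.21% of all probe sets.

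The syn branch on chromosome 4 gave 2 further measured genes. OsMAS, the dehydrogenase named for momilactone A synthesis, is next to OsKSL4, and 2 protein-coding genes separate it from OsCPS4, the cyclase that makes syn-copalyl diphosphate. OsCPS4 read 3.33 and 3.13 on the 0 h arrays, 3.99 and 3.72 on the 6 h arrays, and 3.15 and 3.23 on the 24 h arrays. Both 6 h arrays were above the controls and both 24 h arrays were between them, with differences of 0.62 ± 0.29 at 6 h (SE, limma adjusted p = 0.293) and -0.04 ± 0.29 at 24 h (adjusted p = 0.949). OsMAS read 3.63 and 2.93 at 0 h, 2.46 and 2.61 at 6 h, and 2.94 and 2.82 at 24 h. Its 6 h arrays were lower than both controls, but the difference of -0.74 ± 0.33 did not pass (limma adjusted p = 0.275), and at 24 h it was -0.40 ± 0.33 (adjusted p = 0.518). The cyclase, the synthase and the dehydrogenase of the momilactone route therefore gave 6 h estimates of different sign, none past the threshold.

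OsKO5, a kaurene oxidase-like gene next to OsKO4 on chromosome 6, had controls that stood apart, at 3.63 and 2.06. All treated arrays lay between them, and it differed by 0.02 ± 0.48 at 6 h (SE, limma adjusted p = 0.985) and by -0.28 ± 0.48 at 24 h (adjusted p = 0.768). Of the 4 further diterpenoid phytoalexin genes with a probe set, CYP71Z7, OsCPS4, OsMAS and OsKO5, 0 passed in any comparison. Of all probe sets 1.53% passed at 6 h, 2.21% at 24 h, 0% from 6 h to 24 h and 5.5% with treated arrays pooled. The median difference of the 4 genes was 0.30 at 6 h and -0.16 at 24 h, against 0.20 and 0.26 over all genes.

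No gene of isoprenoid supply or of the gibberellin list passed either. Of all probe sets 1.53% passed at 6 h and 2.21% at 24 h. Of 9 genes of isoprenoid supply and its carotenoid branch, 0 rose, 0 fell and 9 did not pass at either time, with 8 reading higher at each, against 61.4% of all genes at 6 h and 64.3% at 24 h, and medians of 0.57 and 0.51. ISPG and ISPH, named for the last steps of the plastid isoprenoid pathway, differed by 0.84 ± 0.33 and 1.33 ± 0.51 at 24 h, and DXR, its first committed enzyme, by 0.50 ± 0.34 (SE, limma adjusted p = 0.194, 0.188 and 0.415). The gibberellin list mixes genes of gibberellin metabolism and signalling. It also holds OsKSL2, a kaurene synthase-like gene whose part in gibberellin synthesis was not examined. Of the 9 genes on this list 0 passed, with medians of -0.15 and 0.22. The DELLA repressor SLR1 differed by 0.67 ± 0.33 at 24 h, GID2 by 0.96 ± 0.44 and OsKSL2 by -0.54 ± 0.31 (adjusted p = 0.278, 0.256 and 0.354). GID2 shares its RefSeq record with GF14E, so which of them its signal reads is uncertain. At 24 h 1 of the 9 had an unadjusted p under 0.05, against 21.5% of all probe sets. It was OsCPS1, which differed by -0.75 ± 0.29 (limma unadjusted p = 0.0318, adjusted p = 0.191).

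Few of the jasmonate genes passed. Of 21, OsTIFY10a, a JAZ repressor, was the only one that rose at 6 h and at 24 h, and 20 did not pass, against 2.09% and 2.97% of all genes that rose. OsTIFY10a read 5.99 and 5.77 on the 0 h arrays, 7.69 and 7.63 on the 6 h arrays, and 7.28 and 7.60 on the 24 h arrays. All 4 treated arrays were over 1 log2 unit above both controls, with differences of 1.78 ± 0.30 (SE, limma adjusted p = 0.0358) and 1.56 ± 0.30 (adjusted p = 0.0450). With all treated arrays pooled 2 of the 21 rose, against 7.21% of all genes, OsTIFY10a and OsTIFY6a, also of the JAZ family (1.67 ± 0.26 and 1.35 ± 0.26, adjusted p = 0.0175 and 0.0307), and the lipoxygenase gene LOX9 missed the threshold (1.13 ± 0.27, adjusted p = 0.0509). After quantile normalization and after cyclic loess these calls were lost: OsTIFY10a then differed by 1.32 and 1.31 at 6 h (adjusted p = 0.113 and 0.103) and by 1.06 and 1.06 at 24 h (0.171 and 0.175), and in the pooled comparison OsTIFY10a by 1.19 and 1.19 (0.0739 and 0.0709) and OsTIFY6a by 0.79 and 0.70. Without the second control array or any 1 treated array OsTIFY10a also did not pass at either time (highest adjusted p = 0.203 at 6 h and 0.404 at 24 h), nor did OsTIFY6a in the pooled comparison (highest 0.143). The pooled call of OsTIFY10a was lost without the first 6 h array or either 24 h array (highest 0.102). The list median was 0.52 at 6 h and 0.54 at 24 h. These genes were brighter than the members, with a median signal of 5.44 and 5.17 on the 0 h arrays. The list medians were not recomputed under other scalings, and the part of signal level in them was not tested.

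Of 12 genes on a list of chitin perception, kinases and WRKY factors, 0 passed at 6 h or 24 h, with medians of 0.49 and 0.83. Of all probe sets 1.53% and 2.21% passed at these times. In the pooled comparison 1 rose, MPK7, a mitogen-activated protein kinase (1.40 ± 0.29, SE, limma adjusted p = 0.0364), against the same 7.21% of all genes. MPK7 is not on the list under that name and was matched by a synonym, so its part in chitin perception is uncertain. OsWRKY24 and OsWRKY76 differed by 1.47 ± 0.37 and 1.02 ± 0.27 and did not pass (adjusted p = 0.0613 and 0.0671). Of 8 genes of other phytoalexin routes 1 fell in the pooled comparison, CHS2, named for a chalcone synthase of the flavonoid route, against 0.505% of all genes that fell. It read 1.83, 1.67, 1.45 and 1.97 on the treated arrays and 3.01 and 2.96 on the controls, and it fell by 1.25 (SE 0.27, adjusted p = 0.0395). Those treated signals lay below the lower quartiles of their arrays, 1.91, 2.13, 1.93 and 1.98. Both control signals lay above the medians of their arrays, 2.91 and 2.93. Quantile normalization gave -1.11 for CHS2 in the pooled comparison, and cyclic loess gave -0.95. The part of the lower reading of dim signals in this fall was not tested. How far the treated signals of CHS2 stand above background is unknown. TDC2, named for the tryptophan decarboxylase that leads to tryptamine and serotonin, differed by 1.07 ± 0.31 and ASMT1 by -0.88 ± 0.49, and neither passed (adjusted p = 0.0879 and 0.302). The calls of MPK7 and CHS2 were lost after quantile normalization (adjusted p = 0.0990 and 0.0942) and cyclic loess (0.101 and 0.117). Leaving out the second control or any 1 treated array ended the call of MPK7 (highest adjusted p = 0.176), and leaving out any 1 array that of CHS2 (0.194). Medians of the list of other routes were 0.14 at 6 h and -0.17 at 24 h.

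**Figure D4:**
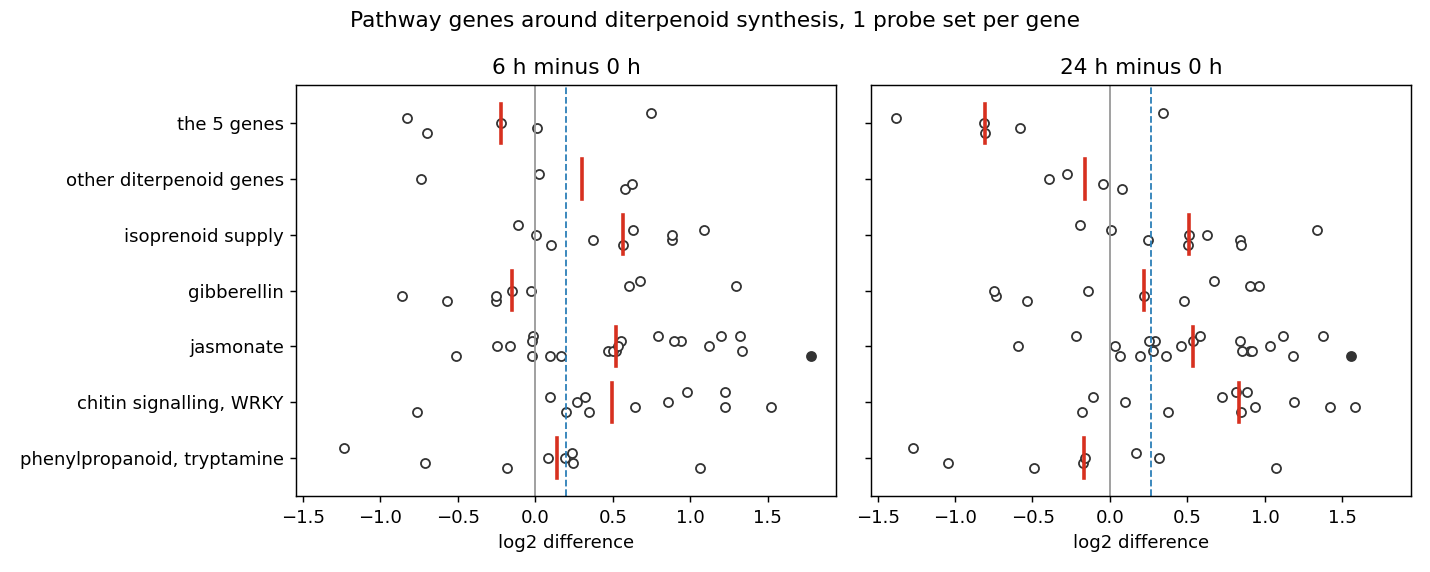
Log2 difference (horizontal axes) at 6 h and 24 h from 0 h of each gene (points) of 7 groups (vertical axis); filled points passed limma's threshold, red bars are group medians and the dashed line is the median over all 14662 genes. At 24 h the 5 diterpenoid genes have a median of -0.80 and the jasmonate genes 0.54, with OsTIFY10a the filled point in both panels. The jasmonate genes are brighter than the 5 genes, and bright signals as a whole read higher on treated arrays. Values are as deposited, and medians of the other lists were not recomputed under other scalings.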

How the data were processed

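Total RNA of rice roots was labelled with biotin and hybridised to Affymetrix arrays, per the labels' protocols. The authors deposited log2 signals per probe set, made with Affymetrix Expression Console per the submitters' processing notes. For the logarithm's base, the summarisation and the normalization, the sources used here give no statement, and base 2 was read from a range of 0.65 to 13.36. Limma 3.58.1 in R 4.3.3 fitted 1 mean per time to all 6 arrays and 41770 probe sets (3 residual and 5.08 prior degrees of freedom). The fit was run on simulated data with planted 24 h changes larger than any difference of the 5 genes. That run cannot tell whether changes of their size would be called. The number of arrays limits the precision. The contrasts were 6 h and 24 h minus 0 h, 24 h minus 6 h, and the mean of both times minus 0 h. The words rose and fell are used of genes that passed.

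The members and lists were chosen with earlier results of these data known. The text names the members, all measured genes of the diterpenoid list and, added after seeing the data, OsCPS1. Of 5 other lists it names those that passed and the 3 with the smallest unadjusted p in the pooled contrast. Lists were matched by symbol and synonym, and 2 matches, an actin and a molybdenum cofactor sulfurase, were set aside by their synonyms. For each member the 2 genes most alike by Pearson coefficient were named. Alternatives were 3 scalings, a filter on dim probe sets, other variance models, array weights, fewer arrays, a replicate block and 1 probe set per gene.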

Additional observations from a re-analysis of the deposited data

How the results depend on the processing

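Over the deposited values and 15 alternatives, 311 tests of the 5 genes gave 0 adjusted p-values under 0.05. The lowest, 0.0512, was for OsKO4 at 24 h without the first control array. At a limma unadjusted p under 0.05, 1 of the 5 met the limit at 6 h, 1 at 24 h and 2 in the pooled comparison. Of all probe sets 19.2%, 21.5% and 24.6% met it. The median of the 5 genes moved to -0.64 at 6 h after quantile normalization and to -0.57 after cyclic loess, and it was -0.10 after median centring, against -0.22 as deposited, and the cause was not tested. Leaving out each array in turn gave medians of -0.42 to -0.04 at 6 h and -0.90 to -0.65 at 24 h, and 0 to 0 genes past the threshold. OsKSL4 at 6 h then ran from -0.42 to 0.44, negative without the second control or the second 6 h array. OsCPS2 at 24 h minus 6 h ran from -0.51 to 0.30, positive without the first 6 h array. Of the other alternatives the 3 scalings alone can move a difference, and all 60 such values kept their sign, as did 87 of the 90 that leaving out an array moved. With the replicate number as a block, 0 of the 5 genes passed, and OsKO4 at 24 h gave an adjusted p = 0.103. Of the listed genes, whose alternatives were added after seeing the data, OsTIFY10a at 6 h and 24 h and CHS2 missed the threshold with that block (0.0544, 0.0583 and 0.0516). Arrays of equal number in 2 times deviated together at coefficients of 0.05 (6 h and 0 h), 0.03 (24 h and 0 h) and 0.16 (24 h and 6 h). The labels do not say whether they share more than a number, and these coefficients cannot settle it. The filter on dim probe sets kept 27846, without OsKO4, and 4 of the 5 genes, and it also left out CHS2. An average over several probe sets was not run, since each gene has 1. With an array left out, the lone array of a time is assumed to vary like the others. How far these signals stand above background is unknown.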
